A study of Mus musculus with 384 samples.

Results

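The 40 genes described here are transcripts of the cell cycle machinery, followed in liver RNA of 192 Diversity Outbred mice. They were taken from the 21454 genes of the deposited table by matching Ensembl IDs to the GENCODE M21 mouse annotation, and all 40 had a row. By role, 12 copy DNA (replication genes), 18 build the spindle or separate chromosomes (mitosis genes), 8 are cyclins or a cyclin-dependent kinase, and 2 are regulators, the inhibitor Cdkn1a and the transcription factor Foxm1. The roles were set from general knowledge and not from the values, although earlier results of these data were known.

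The mice were 46 males and 48 females on a high fat diet (22% fat by weight), and 48 males and 50 females on standard chow (6% fat by weight). All were wild type animals of an outbred stock bred from several inbred founder strains, fed their diet from weaning and killed at 26 weeks of age. Every mouse is therefore a different genotype, and the labels G11L1 (97 mice) and G11L2 (95 mice) name its outbreeding generation. What L1 and L2 stand for is not explained by the labels. Each mouse had 2 technical sequencing repeats that share 1 column of the table, so the mouse is the replicate.

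A dividing cell copies its DNA in S phase and separates it in mitosis. D-type cyclins drive entry into the cycle from G1, E-type cyclins start DNA replication with their kinase, cyclin A2 acts in S phase and G2, and B-type cyclins bind Cdk1 to start mitosis. Adult hepatocytes are mostly quiescent and return to the cycle when liver mass is lost, and many of them become polyploid by copying DNA without completing division. Replication genes are classically switched on by E2F factors, whereas mitosis genes are classically switched on later, through promoter elements named CHR and the CCAAT box.

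Promoters of 6 of these genes are printed so that the letters of 3 motifs can be read beside the values of the genes that carry them. Windows of 300 bases, from 250 before to 50 after the transcription start, came from RefSeq on GRCm38.p6. Of the 40 genes, 31 had an entry, and Mcm4, Aurkb, Kif20a, Tpx2, Ccna2, Ccnd1, Ccnd2, Ccne2 and Foxm1 had none. Both strands were searched for E2F letters (TTTCCCGC, TTTCGCGC, TTTGCCGC or TTTGGCGC), CHR letters (TTTGAA or TTCGAA) and CCAAT, and matches that overlap were each counted. Capitals mark these letters, read on either strand (a CCAAT on the other strand appears as ATTGG), in 6 windows of 210 bases, from 160 before to 50 after the start, 5′ to 3′ on the gene's strand. Mcm5 (chr8:75109349-75109558, plus strand) and Mcm6 (chr1:128359656-128359865, minus strand) stand for the helicase genes that moved with diet. Pcna (chr2:132253131-132253340, minus strand) stands for a replication gene that did not pass the test. Top2a (chr11:99024140-99024349, minus strand), Cdc20 (chr4:118437294-118437503, minus strand) and Ccnb2 (chr9:70421505-70421714, minus strand) stand for mitosis genes and a mitotic cyclin.
Mcm5: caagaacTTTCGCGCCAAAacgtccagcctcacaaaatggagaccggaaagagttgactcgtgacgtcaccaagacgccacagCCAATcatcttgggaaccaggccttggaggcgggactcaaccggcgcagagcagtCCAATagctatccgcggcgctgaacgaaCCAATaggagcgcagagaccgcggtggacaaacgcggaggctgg
Mcm6: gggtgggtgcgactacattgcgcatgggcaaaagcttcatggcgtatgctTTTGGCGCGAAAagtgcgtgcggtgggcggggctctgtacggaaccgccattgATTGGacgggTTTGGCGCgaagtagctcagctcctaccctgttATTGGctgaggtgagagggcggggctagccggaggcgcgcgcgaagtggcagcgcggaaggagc
Pcna: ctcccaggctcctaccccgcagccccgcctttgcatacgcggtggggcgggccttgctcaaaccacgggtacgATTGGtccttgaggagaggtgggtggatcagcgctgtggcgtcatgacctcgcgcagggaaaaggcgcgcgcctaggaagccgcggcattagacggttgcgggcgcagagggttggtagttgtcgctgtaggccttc
Top2a: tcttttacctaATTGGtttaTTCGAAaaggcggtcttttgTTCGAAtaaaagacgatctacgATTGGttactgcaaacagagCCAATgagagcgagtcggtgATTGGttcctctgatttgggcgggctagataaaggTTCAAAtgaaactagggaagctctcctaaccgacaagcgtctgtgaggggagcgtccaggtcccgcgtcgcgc
Cdc20: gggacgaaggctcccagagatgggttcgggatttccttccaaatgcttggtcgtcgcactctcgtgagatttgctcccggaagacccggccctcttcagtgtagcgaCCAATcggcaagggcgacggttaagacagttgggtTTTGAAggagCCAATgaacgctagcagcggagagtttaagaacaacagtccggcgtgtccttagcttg
Ccnb2: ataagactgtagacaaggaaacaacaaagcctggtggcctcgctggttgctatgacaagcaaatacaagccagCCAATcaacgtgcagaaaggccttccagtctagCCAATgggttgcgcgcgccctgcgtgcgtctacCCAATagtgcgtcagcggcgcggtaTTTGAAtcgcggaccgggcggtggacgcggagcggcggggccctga

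Among the replication genes, 6 of 12 promoters held E2F letters, against 0 of 16 mitosis promoters and 2.26% of all 32851 promoters in the table. The 6 belonged to Mcm3, Mcm5, Mcm6, Mcm7, Cdt1 and Cdc6. Of these, Mcm3, Mcm5, Mcm6 and Cdc6 were higher on high fat in both sexes, and Mcm7 and Cdt1 were called higher in neither. Cdc6 passed the filter on low values, described below, only through its high fat mice. Without E2F letters, Mcm2 was higher in both sexes, and Pcna, Rrm1, Rrm2 and Tyms were called higher in neither. Whether the letters go with the diet change was not tested. CHR letters were in 13 of 16 mitosis promoters and in 2 of 12 replication promoters, against 19.2% of all promoters. CCAAT was in 14 of 16 mitosis promoters, in 9 of 12 replication promoters and in 37.4% of all promoters. The Top2a promoter held the largest number of matches among these genes, 4 of CHR and 6 of CCAAT in 300 bases. Of the 4 cyclin and Cdk promoters, 2 held CHR letters (Ccnb2 and Cdk1) and 1 held E2F letters (Cdk1), while both Cdkn1a promoters held none of the 3 motifs. A match is a description of letters, and binding was not measured.

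**Figure D1:**
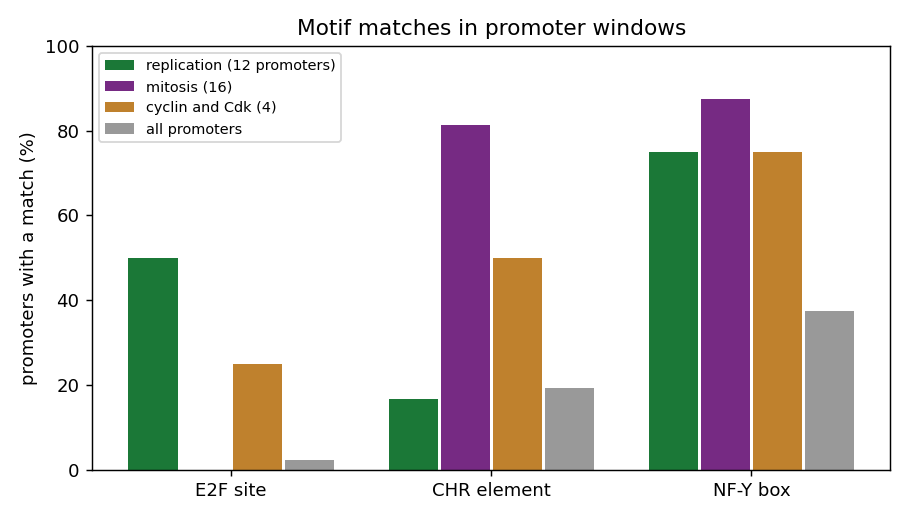
The percentage of 300-base promoter windows with at least 1 match is drawn for each motif in the replication, mitosis, and cyclin and Cdk genes, with all promoters of the table in grey. The regulator promoters, which had no match, are not drawn. The E2F site is found among replication genes (50.0%) and in 0 mitosis promoters, whereas the CHR element is found in 81.2% of mitosis promoters and the NF-Y box (CCAAT) is common to both roles.

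The values are a signal in which the authors scaled each mouse to its upper quartile. Most of these genes were at very low levels, as their signals show when set against the value of a single read. Estimated depth was 9.79 to 17.9 M reads per mouse (median 14.2 M), and 1 read was worth a signal of 0.0158 in the median mouse. Over all mice the median level corresponded to fewer than 5 reads for 6 of the 40 genes, fewer than 20 reads for 22 and fewer than 100 reads for 34. Ttk and Bub1, both kinases of the spindle checkpoint, were at 0 in 36 and 32 mice, and these are the 2 genes that failed the filter on low values. The licensing factor Cdc6 was at 0 in 15 mice and cyclin B1 (Ccnb1) in 10. The other 38 genes were tested, and those at a few reads passed the filter with little precision in a single mouse.

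Levels of different genes were compared as signal per kilobase of exon. Pcna, the sliding clamp of DNA polymerase, was the most abundant, with a median of 2.22 per kilobase, followed by cyclin D1 (Ccnd1) at 1.37, Mcm7 at 0.590 and thymidylate synthase (Tyms) at 0.479. The median per kilobase was 0.0758 for Mki67, the proliferation antigen Ki-67, and 0.0409 for Top2a, the topoisomerase that untangles chromosomes. Kinetochore genes were near the bottom, with 0.0128 for Cenpe and 0.00755 for Cenpf, above Bub1 at 0.00748 and Ttk at 0.00658. The first 13 places per kilobase were held by 10 of the 12 replication genes with Ccnd1, Ccnd2 and Cdkn1a, and the mitosis gene placed highest, Aurka, was 14th.

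Library checks were made before the comparisons. Liver identity was checked with 7 hepatocyte markers, and none of them was at 0 in any mouse. The lowest albumin signal was 6440. Digestive enzyme transcripts of pancreas stood at more than 5 times their median in 11 mice, 10 mice were least like the others over all genes, and 1 female on chow had an Xist signal of 0.361, within the male range. Counts were therefore repeated without each of these sets. Y-linked genes were not analysed here. No label says that mice of the same group shared a litter or cage, and p-values measure the spread between mice.

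High fat feeding was compared with chow within each sex. Changes were fitted with limma on log2(signal + 0.0629), which understates the change of low genes, and a gene was called where its p, adjusted over all 14602 genes tested, was under 0.05. Most helicase subunits, 8 of the 16 tested mitosis genes and the mitotic cyclins were higher on high fat in both sexes, and the higher calls in either sex ranged from 1.19-fold to 1.96-fold, while Pcna, the nucleotide synthesis genes and cyclin D2 did not pass the test. In males, 29 of the 38 tested genes were higher on high fat and 1 was lower, where 11.4% of all 14602 tested genes were higher and 39.8% were lower. In females 21 were higher and 0 were lower, where 10.0% of all genes were higher and 23.3% were lower. Median-of-ratios scaling gave 30 higher and 0 lower in males, where 19.4% of all genes were higher and 16.8% lower, and 23 higher and 0 lower in females, beside 15.0% and 14.7%. Quantile normalization gave 24 higher and 0 lower in males, beside 15.0% and 18.6%, and 20 higher and 0 lower in females, beside 14.4% and 15.4%. The median log2 change of the 38 genes was 0.47 in males and 0.32 in females, while the median of all genes was -0.10 in males and -0.04 in females. In bulk tissue, a change in the number of cycling cells and a change in RNA per cell cannot be told apart.

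All 21 genes that were higher in females were also higher in males. Both comparisons use separate mice but come from 1 fit. The same overlap was not counted over all genes, so it cannot be called particular to these genes. Another 8 passed the threshold in males and not in females, namely Cdc20, Bub1b, Plk1, Birc5, Kif20a, Kif23, Ccnd1 and Foxm1. The difference between the sexes was tested directly for each gene, and 0 of the 38 passed, with 0 under each alternative setting. An unadjusted p under 0.05 (limma) was found for 1 of the 38, beside 3576 of all 14602 genes. In that test 1.46% of all genes had a more positive diet effect in males and 6.92% a more negative one. A diet effect particular to males was therefore not shown for any of the 8.

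**Figure D2:**
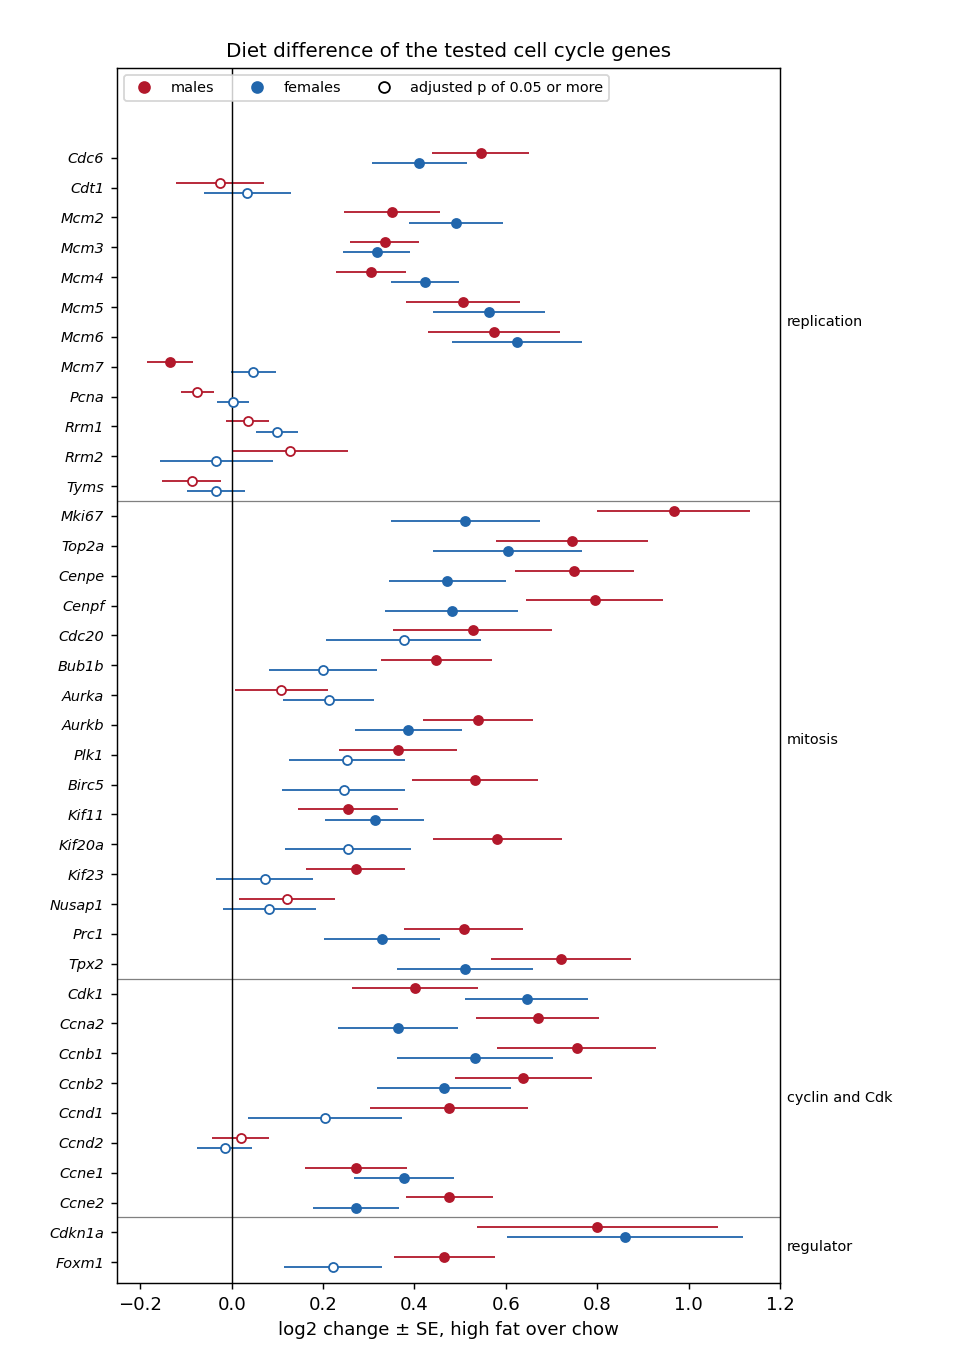
The log2 change ± SE of high fat over chow is drawn for each of the 38 tested genes, with males in red above females in blue, grouped by role. Filled points have an adjusted p under 0.05. Mcm2 to Mcm6 lie between 0.31 and 0.62 in both sexes, Pcna and Tyms lie near 0, and Mki67 in males reaches 0.97.

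Of the 12 replication genes, 6 were higher on high fat in both sexes, and these were Cdc6 and 5 of the 6 subunits of the MCM helicase, the ring that unwinds DNA at the fork. Of all tested genes, 11.4% were higher in males and 10.0% in females, and the share higher in both was not counted. Mcm6 had a signal of 0.339 to 6.34 (median 1.14) in high fat males, against 0.220 to 1.94 (median 0.838) in chow males. In high fat females it had 0.505 to 3.05 (median 1.11), against 0.274 to 1.99 (median 0.750) in chow females. The groups overlapped, with the highest values in high fat mice of each sex. The log2 change was 0.57 ± 0.15 in males (adjusted p = 0.000439) and 0.62 ± 0.14 in females (adjusted p = 0.000213).

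Mcm5 had a signal of 0.255 to 3.23 (median 0.934) in high fat males and 0.210 to 1.51 (median 0.684) in chow males. It had 0.303 to 2.76 (median 0.849) in high fat females and 0.207 to 1.77 (median 0.586) in chow females. Its log2 change was 0.51 ± 0.12 in males (adjusted p = 0.000304) and 0.56 ± 0.12 in females (adjusted p = 9.67e-05). All 4 groups of Mcm5 overlapped. Mcm2 had a signal of 0.481 to 3.43 (median 1.15) in high fat males and 0.412 to 2.33 (median 0.846) in chow males. It had 0.452 to 3.16 (median 0.998) in high fat females and 0.469 to 1.26 (median 0.719) in chow females. Its log2 change was 0.35 ± 0.11 in males and 0.49 ± 0.10 in females, and chow females had the lowest maximum.

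Mcm3 had a signal of 1.07 to 5.11 (median 1.64) in high fat males and 0.860 to 2.59 (median 1.33) in chow males. It had 0.926 to 3.56 (median 1.62) in high fat females and 0.870 to 2.00 (median 1.27) in chow females. Both high fat medians lay above both chow medians. Mcm4 had a signal of 0.708 to 3.15 (median 1.24) in high fat males and 0.714 to 1.82 (median 1.02) in chow males. It had 0.743 to 3.04 (median 1.28) in high fat females and 0.618 to 1.44 (median 0.945) in chow females. Mcm3 and Mcm4 rose by less, with log2 changes of 0.33 ± 0.07 and 0.31 ± 0.08 in males and 0.32 ± 0.07 and 0.42 ± 0.08 in females.

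Summed over Mcm2 to Mcm6, the signal was 3.54 to 21.3 (median 5.93) in high fat males and 3.06 to 9.60 (median 4.61) in chow males. The sum was 3.38 to 15.1 (median 5.90) in high fat females and 3.17 to 8.32 (median 4.29) in chow females. The 4 groups overlapped in this sum. Cdc6, which loads the helicase, was near the limit of detection, and its chow means were under the limit of the filter. Cdc6 had a signal of 0 to 0.261 (median 0.0684) in high fat males and 0 to 0.149 (median 0.0296) in chow males. It had 0 to 0.427 (median 0.0824) in high fat females and 0 to 0.191 (median 0.0474) in chow females. Its medians of 4.00 and 2.00 reads in high fat and chow males came with a log2 change of 0.54 ± 0.11 in males (adjusted p = 5.78e-06) and 0.41 ± 0.10 in females (adjusted p = 0.000887).

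Mcm7, the remaining helicase subunit, was not called higher on high fat in either sex. Mcm7 had a signal of 1.72 to 4.32 (median 2.76) in high fat males and 2.24 to 4.11 (median 3.11) in chow males. It had 1.61 to 4.31 (median 2.42) in high fat females and 1.68 to 3.69 (median 2.33) in chow females. It was lower on high fat in males by a log2 change of -0.13 ± 0.05 (adjusted p = 0.0176) and did not pass the test in females (0.05 ± 0.05, adjusted p = 0.483). The call in males was lost under median-of-ratios scaling (log2 change -0.03, adjusted p = 0.710) and under quantile normalization (-0.04, adjusted p = 0.596). Exons of Cops6 and Ap4m1 lie on the other strand over 12.6% of the Mcm7 exon length, and 23.3% of its 50-base words occur in other transcripts. The counting strand is not given in the sources used here, so these reads cannot be told apart.

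Pcna had a signal of 3.84 to 6.74 (median 5.30) in high fat males and 4.59 to 6.96 (median 5.40) in chow males. In high fat females it was at 4.08 to 7.82 (median 5.26), against 4.10 to 6.56 (median 5.42) in chow females. The log2 change was -0.07 ± 0.04 in males (adjusted p = 0.0693, with a call on normal scores at 0.0450 and without the 3 mice described further on at 0.0136) and 0.00 ± 0.03 in females (adjusted p = 0.951). Of its 50-base words, 19.1% are shared with the pseudogene Pcna-ps2. Changes of Rrm1 and Rrm2, the large and small subunits of ribonucleotide reductase, of Tyms, and of the licensing factor Cdt1 lay between -0.09 and 0.13 on the log2 scale, and none passed the test in either sex. Under median-of-ratios scaling Rrm1 was called higher in both sexes (0.14 in males, adjusted p = 0.0178, and 0.14 in females, adjusted p = 0.0154), and under quantile normalization in females (0.13, adjusted p = 0.0246).

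Rrm1 had a signal of 1.86 to 4.19 (median 2.60) in high fat males and 1.73 to 3.35 (median 2.60) in chow males. It had 1.57 to 3.69 (median 2.36) in high fat females and 1.34 to 2.93 (median 2.28) in chow females. The 4 groups overlapped. Rrm2 had a signal of 0.262 to 2.26 (median 0.621) in high fat males and 0.130 to 1.46 (median 0.628) in chow males. It had 0.188 to 1.43 (median 0.410) in high fat females and 0.172 to 1.25 (median 0.451) in chow females. These levels are those of about 30 to 40 reads. Tyms had a signal of 1.48 to 5.77 (median 2.79) in high fat males and 2.20 to 5.42 (median 3.06) in chow males. It had 1.81 to 4.89 (median 2.79) in high fat females and 1.36 to 4.47 (median 2.96) in chow females. Cdt1 was called under quantile normalization alone, for males against females on chow (0.22, adjusted p = 0.0411, against 0.17 and 0.114). Its signal had medians of 0.543 in high fat males and 0.562 in chow males, and of 0.502 in high fat females and 0.475 in chow females.

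Of the 16 mitosis genes tested, 14 were higher on high fat in males and 8 in females, beside 11.4% and 10.0% of all genes. Mki67 had a signal of 0.218 to 6.67 (median 0.958) in high fat males, against 0.148 to 3.73 (median 0.461) in chow males. In high fat females it had 0.236 to 3.77 (median 1.27), against 0.311 to 2.27 (median 0.724) in chow females. The log2 change was 0.97 ± 0.17 in males (1.96-fold, adjusted p = 3.68e-07) and 0.51 ± 0.16 in females (1.43-fold, adjusted p = 0.00941). The difference between these changes, 0.46 ± 0.23, did not pass the test (adjusted p = 0.211).

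Top2a had a signal of 0.0625 to 2.46 (median 0.470) in high fat males and 0.0426 to 1.94 (median 0.264) in chow males. In females it had 0.118 to 1.72 (median 0.445) on high fat and 0.0661 to 0.869 (median 0.311) on chow. Chow females thus reached lower maxima than any other group for Top2a and Mki67. The log2 change of Top2a was 0.74 ± 0.17 in males (adjusted p = 6.70e-05) and 0.60 ± 0.16 in females (adjusted p = 0.00181).

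The kinetochore genes Cenpe and Cenpf and the spindle factor Tpx2 were higher in both sexes. Cenpf had a signal of 0.0417 to 1.33 (median 0.201) in high fat males and 0 to 0.680 (median 0.0839) in chow males. It had 0.0149 to 0.783 (median 0.169) in high fat females and 0.0235 to 0.302 (median 0.0938) in chow females. The groups overlapped, with log2 changes of 0.79 ± 0.15 in males and 0.48 ± 0.15 in females. Cenpe had a signal of 0.0392 to 1.17 (median 0.168) in high fat males and 0 to 0.439 (median 0.0727) in chow males. It had 0.0147 to 0.621 (median 0.160) in high fat females and 0.0312 to 0.298 (median 0.0869) in chow females. Cenpe changed by 0.75 ± 0.13 in males and 0.47 ± 0.13 in females on the log2 scale.

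Tpx2 had a signal of 0.0168 to 1.46 (median 0.170) in high fat males and 0 to 0.713 (median 0.0868) in chow males. It had 0.0405 to 0.737 (median 0.171) in high fat females and 0 to 0.285 (median 0.0935) in chow females. For this gene, which helps to nucleate spindle microtubules, the changes were 0.72 ± 0.15 in males and 0.51 ± 0.15 in females. The mean of Aurkb in chow males was under the limit of the filter. Aurkb had a signal of 0 to 0.457 (median 0.0949) in high fat males and 0 to 0.311 (median 0.0496) in chow males. It had 0 to 0.527 (median 0.0901) in high fat females and 0.0147 to 0.179 (median 0.0492) in chow females. This kinase, which corrects faulty attachments, had medians of 6.00 reads on high fat and 3.00 reads on chow in both sexes and changed by 0.54 ± 0.12 in males and 0.39 ± 0.12 in females, where a pseudocount 10 times smaller ended the call in females (adjusted p = 0.0631).

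Kif11 had a signal of 0.0909 to 1.06 (median 0.267) in high fat males and 0.0426 to 0.658 (median 0.231) in chow males. It had 0.0988 to 0.608 (median 0.238) in high fat females and 0.0552 to 0.411 (median 0.183) in chow females. The 4 groups overlapped. Prc1 had a signal of 0.0208 to 1.65 (median 0.313) in high fat males and 0.0345 to 1.52 (median 0.224) in chow males. It had 0.0414 to 0.743 (median 0.226) in high fat females and 0.0800 to 0.429 (median 0.178) in chow females. The spindle motor Kif11 changed by 0.25 ± 0.11 in males and 0.31 ± 0.11 in females, and the midzone bundler Prc1 by 0.51 ± 0.13 in males and 0.33 ± 0.13 in females. The call of Kif11 in males was lost under quantile normalization (0.18, adjusted p = 0.197), under array weights, without the filter, with a pseudocount 10 times larger, without the 11 mice with pancreas transcripts and without the 3 mice described further on (adjusted p of 0.0502 to 0.131 in these 5). That of Prc1 in females was lost under quantile normalization (0.29, adjusted p = 0.0642).

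The genes called in males and not in females began with Cdc20, which activates the anaphase-promoting complex. Cdc20 had a signal of 0 to 2.52 (median 0.200) in high fat males and 0.0152 to 1.32 (median 0.119) in chow males. It had 0.0362 to 0.675 (median 0.169) in high fat females and 0.0263 to 0.266 (median 0.109) in chow females. Its log2 change was 0.53 ± 0.17 in males (adjusted p = 0.00706) and 0.38 ± 0.17 in females (adjusted p = 0.0745, and 0.0456 under array weights). Birc5 had a signal of 0.0476 to 1.10 (median 0.410) in high fat males and 0.0536 to 1.12 (median 0.242) in chow males. It had 0.105 to 0.700 (median 0.277) in high fat females and 0.0597 to 0.682 (median 0.230) in chow females. Birc5 encodes survivin, and it had log2 changes of 0.53 ± 0.14 in males and 0.24 ± 0.13 in females (adjusted p = 0.153).

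Kif20a had a signal of 0.109 to 2.79 (median 0.291) in high fat males and 0.0550 to 1.00 (median 0.194) in chow males. It had 0.0950 to 1.19 (median 0.244) in high fat females and 0.0741 to 0.414 (median 0.220) in chow females. This cytokinesis kinesin changed by 0.58 ± 0.14 in males (adjusted p = 0.000240) and 0.26 ± 0.14 in females (adjusted p = 0.145). Bub1b had a signal of 0 to 0.739 (median 0.163) in high fat males and 0 to 0.292 (median 0.0984) in chow males. It had 0.0263 to 0.382 (median 0.132) in high fat females and 0 to 0.348 (median 0.103) in chow females. For Bub1b, a checkpoint protein, the log2 change was 0.45 ± 0.12 in males and 0.20 ± 0.12 in females.

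Plk1 had a signal of 0 to 0.667 (median 0.105) in high fat males and 0 to 0.329 (median 0.0617) in chow males. It had 0 to 0.351 (median 0.0784) in high fat females and 0.0143 to 0.191 (median 0.0635) in chow females. The log2 change of this mitotic kinase was 0.36 ± 0.13 in males and 0.25 ± 0.13 in females, and the call in males was lost under quantile normalization (0.28, adjusted p = 0.0746). Kif23 had a signal of 0.0263 to 0.357 (median 0.136) in high fat males and 0.0213 to 0.281 (median 0.0965) in chow males. It had 0.0294 to 0.585 (median 0.158) in high fat females and 0.0267 to 0.444 (median 0.129) in chow females. The log2 change of this cytokinesis kinesin was 0.27 ± 0.11 in males and 0.07 ± 0.11 in females, and its call in males was lost under quantile normalization (0.20, adjusted p = 0.142), without the mice with pancreas transcripts (0.24, adjusted p = 0.0621) and without the 3 mice described further on (0.24, adjusted p = 0.0533). Exons of Cdc23 lie on the other strand over 29.3% of Kif20a, so reads of the 2 genes cannot be told apart. Aurka had a signal of 0.105 to 1.46 (median 0.386) in high fat males and 0.152 to 1.10 (median 0.383) in chow males. It had 0.162 to 0.789 (median 0.345) in high fat females and 0.138 to 0.625 (median 0.303) in chow females. Aurka, the centrosome kinase, and Nusap1, a microtubule protein, did not pass the test in either sex (log2 changes of 0.11 and 0.12 in males, 0.21 and 0.08 in females), although Aurka was called in females under median-of-ratios scaling (0.25, adjusted p = 0.0421) and array weights (0.23, adjusted p = 0.0383). Nusap1 had medians of 0.239 in high fat males and 0.216 in chow males, and of 0.215 in high fat females and 0.200 in chow females. Bub1 had medians of 0.0527 in high fat males and 0.0210 in chow males, and of 0.0401 in high fat females and 0.0303 in chow females. Ttk had medians of 0.0546 in high fat males and 0.0181 in chow males, and of 0.0449 in high fat females and 0.0167 in chow females, which are 1 to 4 reads.

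Cyclin and kinase genes rose in 7 of 8 cases in males and 6 of 8 in females, beside 11.4% and 10.0% of all genes. Ccnb1 had a signal of 0.0176 to 2.33 (median 0.140) in high fat males and 0 to 0.877 (median 0.0536) in chow males. In females it had 0 to 0.645 (median 0.0916) on high fat and 0 to 0.246 (median 0.0614) on chow. Its log2 change was 0.76 ± 0.17 in males (adjusted p = 0.000121) and 0.53 ± 0.17 in females (adjusted p = 0.00969), and 23.4% of its 50-base words are shared with other transcripts, among them the pseudogene Ccnb1-ps. Ccnb2 had a signal of 0 to 1.25 (median 0.157) in high fat males and 0 to 0.457 (median 0.0795) in chow males. It had 0.0142 to 0.632 (median 0.0906) in high fat females and 0.0132 to 0.206 (median 0.0664) in chow females. Ccnb2 changed by 0.64 ± 0.15 in males and 0.47 ± 0.15 in females.

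Ccna2 had a signal of 0.0768 to 1.89 (median 0.254) in high fat males and 0.0155 to 0.631 (median 0.145) in chow males. It had 0.0471 to 0.701 (median 0.209) in high fat females and 0.0393 to 0.329 (median 0.148) in chow females. The log2 changes were 0.67 ± 0.14 in males (adjusted p = 1.13e-05) and 0.36 ± 0.13 in females (adjusted p = 0.0235). Cdk1 had a signal of 0 to 1.61 (median 0.195) in high fat males and 0.0444 to 0.932 (median 0.155) in chow males. It had 0.0716 to 1.00 (median 0.205) in high fat females and 0.0469 to 0.345 (median 0.121) in chow females. The log2 change of this mitotic kinase was 0.40 ± 0.14 in males and 0.65 ± 0.14 in females, and the call in males was lost without the 3 mice described further on (0.27, adjusted p = 0.0747) and under quantile normalization (0.32, adjusted p = 0.0553).

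Ccne2 had a signal of 0.138 to 1.10 (median 0.499) in high fat males and 0.171 to 0.780 (median 0.326) in chow males. It had 0.180 to 0.989 (median 0.354) in high fat females and 0.0829 to 0.714 (median 0.286) in chow females. Of the E-type cyclins, Ccne1 changed by 0.27 ± 0.11 in males and 0.38 ± 0.11 in females and Ccne2 by 0.48 ± 0.10 in males and 0.27 ± 0.09 in females. The call of Ccne1 in males was lost under quantile normalization (0.20, adjusted p = 0.159), without the 3 mice (0.24, adjusted p = 0.0620), on normal scores (adjusted p = 0.0604) and with a pseudocount 10 times smaller (adjusted p = 0.0606). That of Ccne2 in females was lost under quantile normalization (0.23, adjusted p = 0.0504). Exons of Ints8 on the other strand cover 17.4% of Ccne2, and exons of Exosc9 cover 12.5% of Ccna2. Among D-type cyclins, Ccnd1 was higher on high fat in males (0.48 ± 0.17, adjusted p = 0.0151) and missed the threshold in females (0.20 ± 0.17, adjusted p = 0.367), and Ccnd2 changed by 0.02 ± 0.06 in males and -0.02 ± 0.06 in females.

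The inhibitor Cdkn1a (p21), which blocks cyclin-dependent kinases and is a target of p53, had the largest SE of the 38 genes in both diet comparisons. It had a signal of 0.0800 to 14.5 (median 1.04) in high fat males and 0.0909 to 5.75 (median 0.578) in chow males. In females it had 0.259 to 4.04 (median 0.753) on high fat and 0.0429 to 5.99 (median 0.422) on chow. The highest values stood well above their group medians in each group, and all 4 groups overlapped. The log2 change was 0.80 ± 0.26 in males (adjusted p = 0.00714) and 0.86 ± 0.26 in females (adjusted p = 0.00539).

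Foxm1 had a signal of 0.0536 to 0.871 (median 0.174) in high fat males and 0.0323 to 0.512 (median 0.121) in chow males. It had 0.0597 to 0.434 (median 0.181) in high fat females and 0.0476 to 0.328 (median 0.142) in chow females. Foxm1 drives mitosis genes. Its log2 change was 0.47 ± 0.11 in males (adjusted p = 0.000164) and 0.22 ± 0.11 in females (adjusted p = 0.101, and 0.0345 under array weights).

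**Figure D3:**
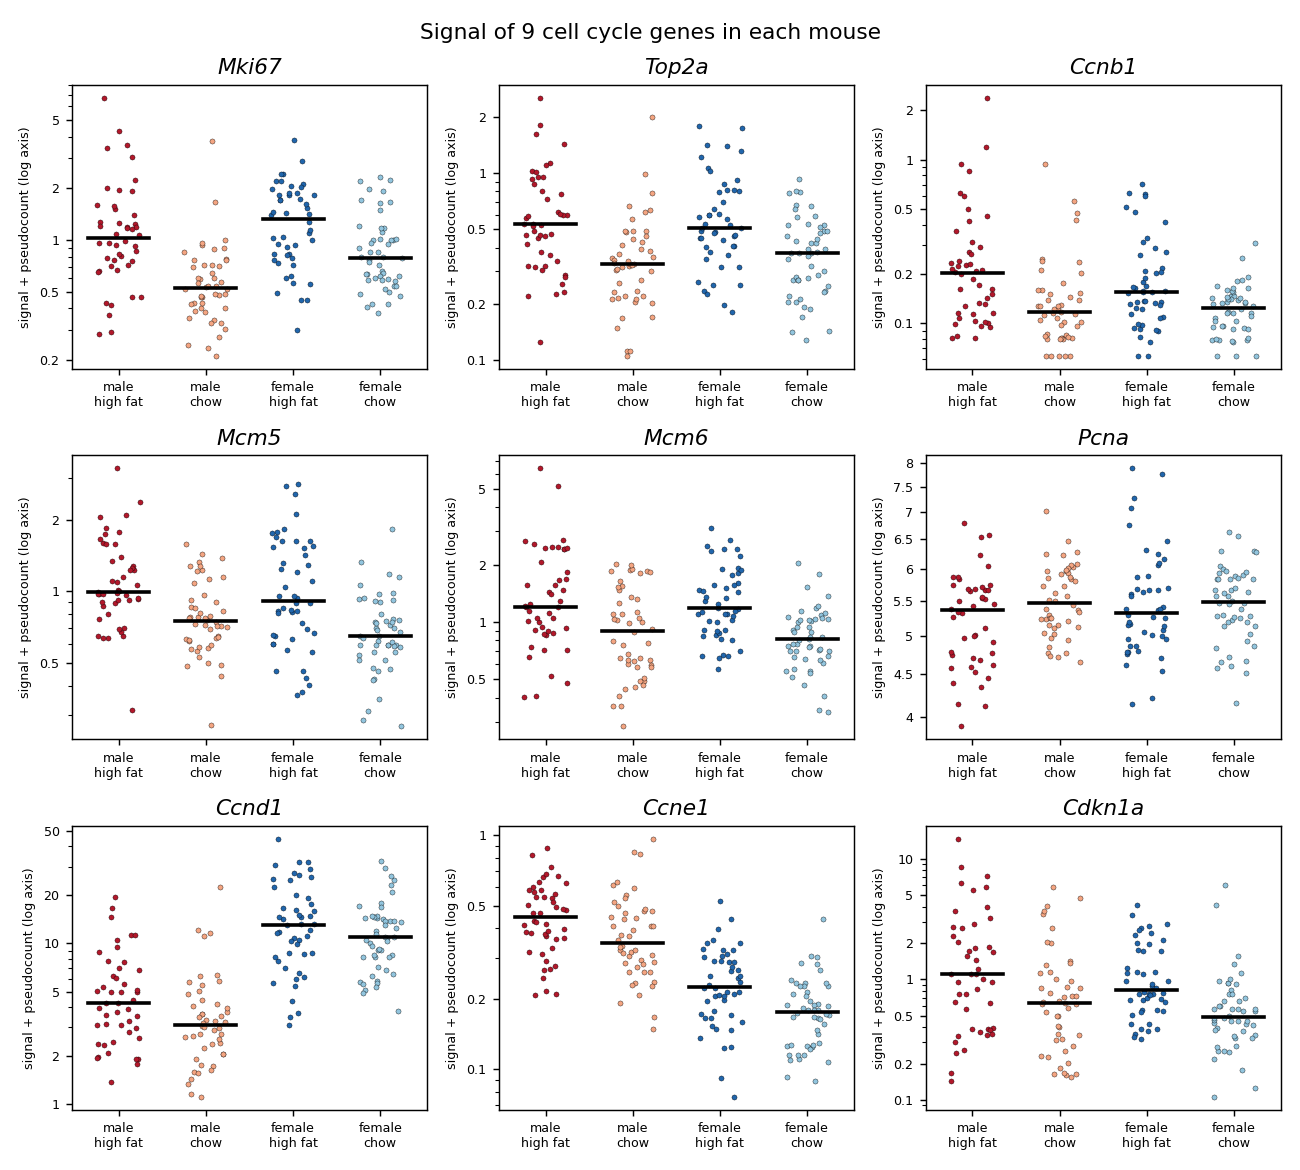
Each point is 1 mouse and each black bar the group median, on log axes of the signal plus the pseudocount of 0.0629, with 46, 48, 48 and 50 mice from left to right. Mki67, Top2a, Ccnb1, Mcm5, Mcm6 and Cdkn1a have higher medians on high fat in each sex with overlapping groups, Pcna has medians of 5.26 to 5.42, Ccnd1 is lower and Ccne1 higher in males than in females.

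The count for diet in females differed between the generation labels. In G11L2 mice alone 21 genes were higher on high fat, where 4.79% of all genes were, and in G11L1 mice alone 1 was (Cdk1, 0.51 ± 0.18, adjusted p = 0.0353), where 4.86% of all genes were. Top2a changed by 1.00 ± 0.23 in G11L2 females and 0.20 ± 0.22 in G11L1 females, and Mcm6 by 0.85 ± 0.22 in G11L2 females and 0.40 ± 0.18 in G11L1 females. The difference between the generation labels was tested in a fit added after seeing the data. In females 0 of the 38 genes passed, as did 0.00% of all genes. At an unadjusted p under 0.05 (limma) there were 13 of the 38, a share that was not counted over all genes. The change was more positive in G11L2 for 36 of 38, with a median difference of 0.38, beside -0.01 for all genes. Some of these genes are correlated across mice, as described below, so these counts are not of independent results. The smallest unadjusted p was that of Mcm4 (difference 0.54 ± 0.15, p = 0.000272, adjusted p = 0.959). In males 0 passed, as did 0.00% of all genes, 0 reached an unadjusted p under 0.05, and 26 genes (25 higher, 1 lower) were called in G11L1 mice alone and 19, all higher, in G11L2 mice alone, where 6.98% and 6.99% of all genes were higher. The generation labels themselves, compared over all mice, gave 0 called genes, where 0.397% of all genes were higher in G11L2 and 0.541% lower. In that comparison 4 of the 38 had an unadjusted p under 0.05 (limma), beside 2100 of all 14602 genes. Without the 11 mice with pancreas transcripts, and without the 3 mice described below, 1 gene, Ccnd1, was called higher in G11L2 (0.47, adjusted p = 0.0364, and 0.44, adjusted p = 0.0456), against 0.41 and adjusted p = 0.0625 with all mice.

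Males were compared with females on each diet. The D-type cyclins were lower and cyclin E1 higher in males on both diets, and the mitosis genes had few differences. On high fat, 9 genes were higher in males and 2 were lower, where 31.5% of all tested genes were higher and 18.3% lower. On chow, 8 were higher and 5 lower, where 44.1% of all genes were higher and 19.1% lower. The median log2 change was 0.12 on high fat and 0.09 on chow, beside 0.04 and 0.10 for all genes. Under median-of-ratios scaling, which moves the median of all genes to -0.01 on both diets, 6 were higher and 3 lower on high fat, beside 23.3% and 25.1% of all genes, and 2 were higher and 6 lower on chow, beside 26.1% and 29.5%.

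Ccnd1 had the largest sex difference of the 38 genes. Its signal was 1.32 to 19.4 (median 4.20) in high fat males and 3.04 to 44.5 (median 13.0) in high fat females. On chow it was 1.05 to 22.4 (median 3.06) in males and 3.73 to 32.2 (median 10.9) in females. Males were mostly below females, with overlap of the groups on both diets. The log2 difference, males over females, was -1.47 ± 0.17 on high fat (adjusted p = 1.37e-13) and -1.74 ± 0.17 on chow (adjusted p = 1.53e-18), so that females were 2.76 and 3.33 times higher. In G11L1 and G11L2 mice alone it was -1.33 and -1.62 on high fat, and -1.94 and -1.54 on chow. Exons of LTO1 on the other strand cover 23.4% of Ccnd1. LTO1 itself had medians of 3.78 in high fat males and 4.38 in high fat females, and 3.63 in chow males and 4.00 in chow females. Ccnd2 was lower in males by -0.30 ± 0.06 on high fat and -0.34 ± 0.06 on chow, with a signal of 1.66 to 4.94 (median 2.36) in males and 1.50 to 4.73 (median 3.05) in females on high fat. On chow Ccnd2 had 1.25 to 3.38 (median 2.56) in males and 2.03 to 4.17 (median 3.07) in females, so that the groups overlapped.

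Ccne1 differed in the other direction. Its signal was 0.145 to 0.822 (median 0.384) in high fat males and 0.0132 to 0.458 (median 0.163) in high fat females. On chow it was 0.0852 to 0.902 (median 0.284) in males and 0.0258 to 0.377 (median 0.113) in females. These are medians of 23.5 reads in males and 12.0 reads in females on high fat, and of 17.0 reads in males and 7.00 reads in females on chow. The log2 difference was 0.96 ± 0.11 on high fat (adjusted p = 7.62e-14) and 1.07 ± 0.11 on chow (adjusted p = 4.05e-17), and it kept its sign and its call within each generation label. Ccne2 had medians of 0.499 in males and 0.354 in females on high fat (log2 difference 0.36 ± 0.10, adjusted p = 0.000747) and 0.326 in males and 0.286 in females on chow (0.16 ± 0.09, adjusted p = 0.133, and 0.0325 under quantile normalization). Ints8, which overlaps it, had medians of 3.94 in males and 3.48 in females on high fat, and 4.57 and 3.67 on chow. The part of Ints8 reads in the Ccne2 difference was not tested.

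Among replication genes, Mcm7, Rrm1 and Rrm2 were higher in males on both diets. The differences were 0.19 ± 0.05 and 0.38 ± 0.05 for Mcm7, 0.11 ± 0.05 and 0.18 ± 0.05 for Rrm1, and 0.46 ± 0.13 and 0.30 ± 0.12 for Rrm2, on high fat and then on chow. Cops6, which overlaps Mcm7, had medians of 15.4 in males and 14.5 in females on high fat, and 16.9 and 15.6 on chow. Those of Ap4m1 were 1.76 and 1.79 on high fat, and 2.18 and 1.885 on chow. The part of their reads in the Mcm7 difference was not tested. Median-of-ratios scaling ended the calls of Rrm1 on both diets and of Rrm2 on chow, and quantile normalization those of Rrm1 on both diets. On chow alone, Mcm2, Tyms, Aurka and Cdk1 were higher in males by 0.16 to 0.31 and lost their calls under that scaling, and Tyms also under quantile normalization, while Cdc6 was lower (-0.25 ± 0.10, adjusted p = 0.0262), a call lost under quantile normalization (-0.19, adjusted p = 0.102). For Pcna the difference on chow was 0.02 ± 0.03 and turned to -0.10 (adjusted p = 0.0134) under that scaling and to -0.12 (adjusted p = 0.00429) under quantile normalization. On high fat it was -0.06 ± 0.04 (adjusted p = 0.136), and -0.12 (adjusted p = 0.00537) and -0.13 (adjusted p = 0.00220) under these scalings.

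Mki67 was lower in males than in females on chow (-0.62 ± 0.16, adjusted p = 0.000460) and did not pass the test on high fat (-0.17 ± 0.17, adjusted p = 0.421). Kif23 was lower in males on chow by -0.34 ± 0.11 (adjusted p = 0.00285). On high fat, Birc5 (0.37 ± 0.14), Kif20a (0.33 ± 0.14), Prc1 (0.35 ± 0.13) and Ccna2 (0.34 ± 0.13) were higher in males, with adjusted p of 0.0168 to 0.0397. Exons of Rccd1 lie on the other strand over 11.1% of Prc1. On high fat, median signals in males and females were 0.904 and 0.591 for Rccd1. They were 3.26 and 3.08 for Cdc23, which overlaps Kif20a, and 2.01 and 1.70 for Exosc9, which overlaps Ccna2. The part of their reads in these calls was not tested. Median-of-ratios scaling ended the calls of Kif20a (0.29, adjusted p = 0.0836) and Ccna2 (0.30, adjusted p = 0.0640), and Ccnb2 was called under quantile normalization (0.36, adjusted p = 0.0391, against 0.32 and 0.0691). Without the 11 mice with pancreas transcripts, 5 genes remained higher and 2 lower on high fat, beside 4437 higher and 2613 lower of all 14602 genes. Kif20a (0.28, adjusted p = 0.0974), Prc1 (0.29, adjusted p = 0.0649), Ccna2 (0.26, adjusted p = 0.0973) and Rrm1 (0.09, adjusted p = 0.0960) no longer passed. Within generation labels, 13 genes were called on high fat in G11L1 mice (11 higher, 2 lower, beside 23.7% and 11.9% of all genes) and 3 in G11L2 mice (1 higher, 2 lower, beside 20.4% and 12.1%). On chow 8 were called in G11L1 mice (3 higher, 5 lower, beside 36.6% and 13.8%) and 5 in G11L2 mice (3 higher, 2 lower, beside 33.7% and 14.0%).

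**Figure D4:**
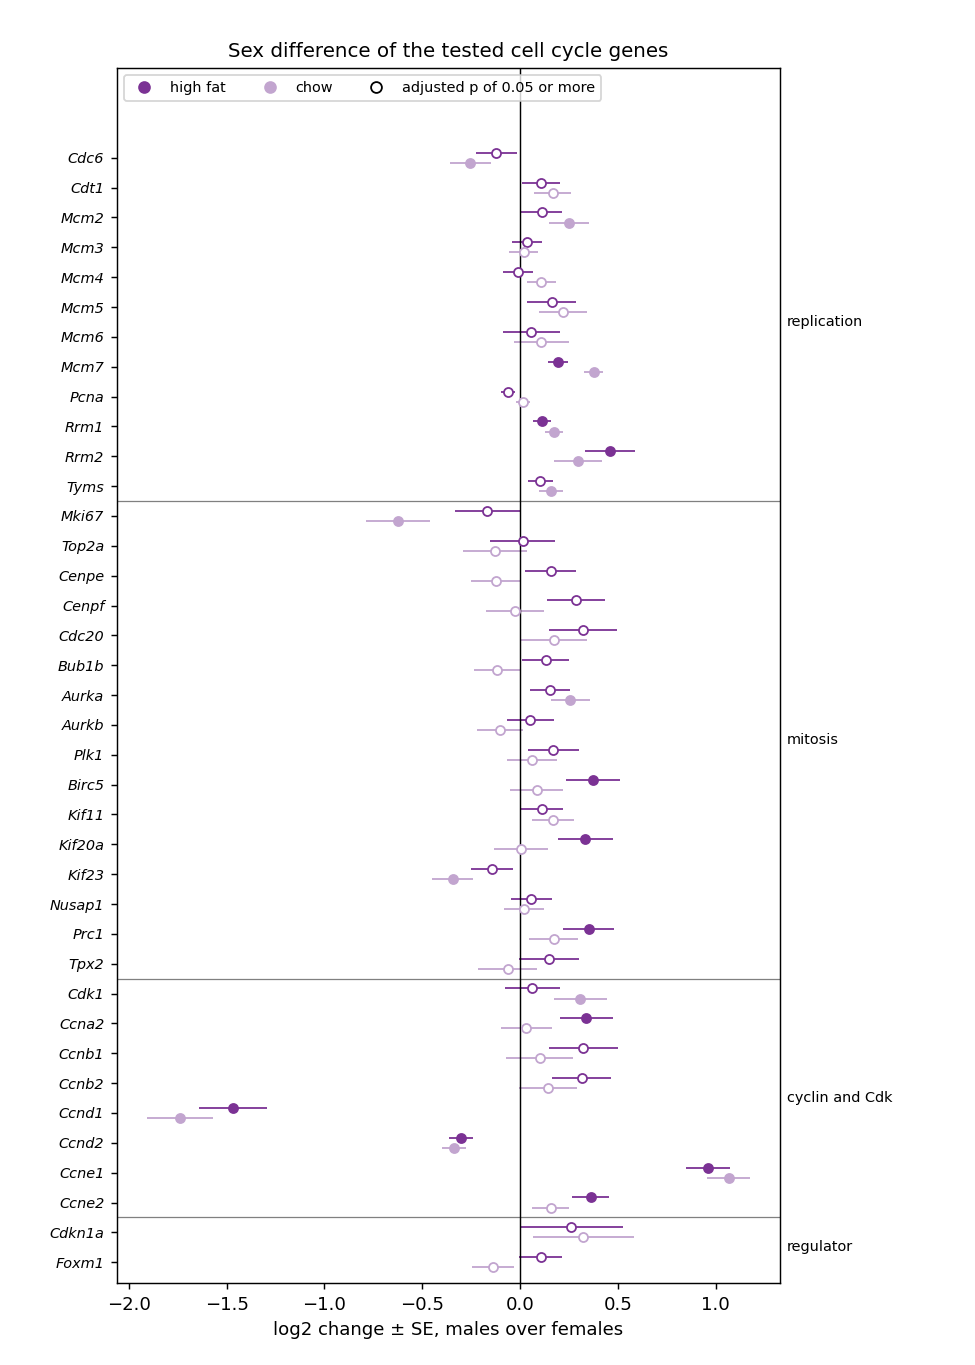
The log2 change ± SE of males over females is drawn for each of the 38 tested genes on high fat (dark) and chow (light), and filled points have an adjusted p under 0.05. Ccnd1 lies at -1.47 and -1.74 and Ccne1 at 0.96 and 1.07, while most replication and mitosis genes lie within 0.5 of 0.

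Individual mice differed in which part of the programme was high. For 32 of the 40 genes the highest mouse was a high fat male, for 6 a high fat female, for 2 a chow male and for 0 a chow female. Neither this count nor those of single mice below were made over all genes, so they cannot be called particular to these genes. Male high fat mouse M418 was highest in 19 genes, of which 14 were mitosis genes, 4 cyclins or Cdk1 and 1 a replication gene. In this mouse Ccnb1 was at 2.33, 16.6 times its group median, Mki67 at 6.67 (6.96 times) and Top2a at 2.46 (5.23 times). Among replication genes, Mcm6 was at 5.13 (4.50 times), Cdc6 at 0.261 (3.81 times), Rrm2 at 2.26 (3.64 times) and Mcm5 at 2.00 (2.14 times). Mcm7 and Tyms were at 0.984 and 0.994 times their group medians. Mouse M418 was among the 10 highest mice in 17 of 18 mitosis genes and in 6 of 12 replication genes. Summed markers of cell types differed in it too. Erythroid markers were at 553.8 (5.55 times the group median) and Kupffer cell markers at 181.7 (2.59 times), both the highest of the high fat males. Hepatocyte markers were at 1.77 times, T, NK and B cell markers at 1.69 times and stellate cell markers at 0.587 times the group median. The part of these cells in its cell cycle values was not tested.

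Male high fat mouse M374 had its highest values in another set of genes. It was highest in 6 genes, all of them helicase subunits, with Mcm6 at 6.34 (5.56 times its group median) and Mcm5 at 3.23 (3.46 times). Mki67 was at 1.14 in this mouse (1.19 times), Top2a at 0.707 (1.51 times) and Ccnb1 at 0.169 (1.21 times). Its erythroid sum was 1.19 times and its Kupffer cell sum 0.919 times the group median. The sum over Mcm2 to Mcm6 was 21.3 in mouse M374 and 12.5 in mouse M418, whereas the sum over the 18 mitosis genes was 5.21 in mouse M374 and 27.1 in mouse M418. Male high fat mouse M419, highest in 3 genes and among the 10 highest in 15 of 18 mitosis genes, was 1 of the 11 mice with pancreas transcripts. In mouse M419 the hepatocyte sum was 1.98 times the group median, the highest of the high fat males. The Kupffer cell sum of mouse M419 was 0.879 times and its erythroid sum 0.693 times the group median. Without these 3 mice, 25 genes were higher and 2 lower on high fat in males, beside 1627 higher and 5800 lower of all 14602 genes. In that setting Pcna joined Mcm7 as lower, and Kif11, Kif23, Cdk1 and Ccne1 lost their calls. On high fat 5 were then higher and 3 lower in males than in females, beside 4486 higher and 2643 lower of all 14602 genes. Pcna was added to the lower genes (-0.09, adjusted p = 0.0328), and Rrm1, Kif20a, Prc1 and Ccna2 lost their calls.

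**Figure D5:**
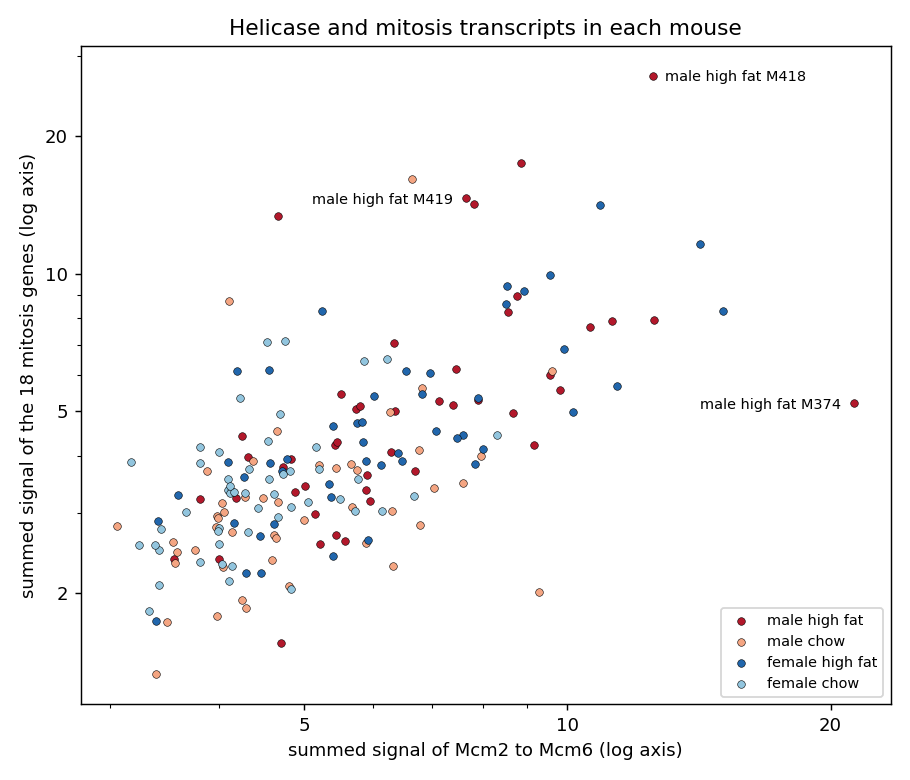
Each point is 1 mouse, placed by its summed signal of Mcm2 to Mcm6 (x, log axis) and of the 18 mitosis genes (y, log axis), and coloured by group. Mouse M418 is highest on the y axis at 27.1 and mouse M374 highest on the x axis at 21.3 with 5.21 on the y axis.

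Pairs of genes were correlated across the mice of each group on the log2 scale (8 pairs in 4 groups, 32 tests, two-sided permutation tests adjusted over the 32), and 20 passed by Pearson's r and 18 by Spearman's rho. The smallest p these permutations can give is 1e-05. Top2a and Mki67 were correlated in every group, with r of 0.94 in high fat males, 0.87 in chow males, 0.77 in high fat females and 0.69 in chow females (rho of 0.94, 0.85, 0.77 and 0.70, each with an unadjusted permutation p of 1e-05 and adjusted p of 3.56e-05 for r and 4e-05 for rho). Without the 2 mice farthest from the median of Top2a, r was 0.93, 0.85, 0.74 and 0.65 in that order of groups. Within the generation labels r lay between 0.52 and 0.96.

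Mcm5 and Mcm6 were correlated in high fat males (r = 0.76, rho = 0.73), chow males (0.65, 0.70) and high fat females (0.85, 0.84), each with a permutation p of 1e-05. In chow females r was 0.34 (permutation p = 0.0146, adjusted 0.0260) and rho 0.31 (permutation p = 0.0312, adjusted 0.0525). The size of r depends on 2 mice, since it fell to 0.19 without the 2 farthest from the median of Mcm5. It was 0.06 in G11L1 and 0.50 in G11L2 chow females. Between the roles, Mcm6 and Top2a had r of 0.67 in high fat males and 0.64 in high fat females (permutation p = 1e-05 each, rho of 0.69 and 0.63), and 0.34 in chow males and 0.43 in chow females (permutation p of 0.0198 and 0.00190, rho of 0.30 and 0.44). In chow males the adjusted p of rho was 0.0633, and r did not pass within either generation label (0.28 and 0.41), nor in chow females of G11L1 (0.36). Whether r differs between the diets was not tested.

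Pcna and Mcm6 were correlated on high fat (r = 0.55 in males and 0.59 in females, permutation p of 4e-05 and 3e-05, rho of 0.44 and 0.48), and on chow they had r of 0.11 in males and 0.26 in females (permutation p of 0.448 and 0.0690). Under median-of-ratios scaling chow females passed as well (r = 0.34, adjusted permutation p = 0.0218), and in high fat females r did not pass in G11L1 mice alone (0.46, adjusted permutation p = 0.0608). Ccnd1 and Mcm6 had r of 0.43 in high fat males and 0.39 in high fat females (permutation p of 0.00291 and 0.00624, rho of 0.51 and 0.36), and 0.15 in chow males and -0.10 in chow females (permutation p of 0.304 and 0.509). In high fat females that relation was 0.01 in G11L1 and 0.56 in G11L2 mice, and in high fat males it was 0.47 and 0.42 and passed in neither. Ccnd1 and Cdkn1a were correlated in high fat males (r = 0.51, rho = 0.53, permutation p of 0.000390 and 0.000160, with r of 0.28 in G11L1 and 0.76 in G11L2) and in chow males (r = 0.41, rho = 0.36, permutation p of 0.00381 and 0.0125, with r of 0.26 in G11L1 and 0.46 in G11L2). In females their r was -0.07 on high fat and 0.13 on chow. In chow males r fell to 0.23 without the 2 mice farthest from the median of Ccnd1, so that its size depends on them. Over all chow males rho still passed (adjusted permutation p = 0.0222). Cdkn1a and Top2a passed in high fat males alone (r = 0.37, rho = 0.45, permutation p of 0.0114 and 0.00183, adjusted 0.0215 and 0.00418, and in neither generation label alone), and Ccnd1 with Top2a passed by r in high fat females (0.34, permutation p = 0.0204, adjusted 0.0327; rho = 0.29, adjusted 0.0703) and by rho in high fat males (0.38, adjusted 0.0205; r = 0.31, adjusted 0.0523). Under median-of-ratios scaling that r was 0.38 (adjusted permutation p = 0.0147), and in neither sex did it pass within a generation label.

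Other genes of the same machinery were counted in lists set from general knowledge, with earlier results of these data known. Beside them, 11.4% of all genes were higher and 39.8% lower on high fat in males, and 10.0% higher and 23.3% lower in females. Of 35 other mitosis genes tested, 27 were higher and 2 lower on high fat in males, and 20 were higher and 2 lower in females. Of 39 other replication genes, 10 were higher and 5 lower in males and 9 higher and 2 lower in females. Of 21 other cyclins and Cdks, 3 were higher and 13 lower in males and 4 higher and 4 lower in females. Of 18 inhibitors, pocket proteins and E2F factors, 4 were higher and 6 lower in males and 2 higher and 4 lower in females. Of 15 p53 targets, 7 were higher and 1 lower in males and 1 higher and 1 lower in females.

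The 2 genes with the smallest p in each list were read out. In males on high fat they were the spindle genes Ckap2 (0.84 ± 0.17) and Hmmr (0.83 ± 0.17), the replication genes Uhrf1 (0.91 ± 0.15) and Clspn (0.55 ± 0.11), the inhibitor Cdkn1b (-0.24 ± 0.04) and the pocket protein Rbl1 (0.47 ± 0.09), Cdk8 (-0.23 ± 0.04) and Ccnl2 (-0.22 ± 0.04), and the p53 targets Btg2 (0.77 ± 0.12) and Sesn1 (-0.31 ± 0.06), as log2 changes. In females they were Spc25 (1.19 ± 0.12) and Nek2 (0.90 ± 0.12), Gins2 (0.74 ± 0.13) and Lig1 (0.50 ± 0.09), E2f1 (0.48 ± 0.09) and Rbl2 (-0.26 ± 0.05), Ccnc (-0.25 ± 0.04) and Cdk4 (0.16 ± 0.03), and Sesn1 (-0.36 ± 0.06) and Sesn2 (0.19 ± 0.07). Gins2 is a subunit of the helicase complex and Spc25 of the outer kinetochore. E2f1, an activator of replication genes, had medians of 0.690 in high fat females and 0.528 in chow females.

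Between the sexes the lists held genes with larger differences than most of the 38. Mcm10, a replication initiation factor outside the helicase ring, had medians of 16.6 in males and 6.54 in females on high fat and 20.7 in males and 7.63 in females on chow (log2 difference 1.16 ± 0.11 and 1.47 ± 0.11). Cyclin F (Ccnf) had medians of 1.99 in males and 0.778 in females on high fat and 3.15 in males and 0.904 in females on chow. The mitotic kinase Nek2 was higher in males by 0.94 ± 0.13 on high fat and 1.69 ± 0.12 on chow. The inhibitor Cdkn1c was lower in males, with medians of 0.261 in males and 0.579 in females on high fat and 0.249 in males and 0.638 in females on chow. The others so chosen were Bub3, Rfc1, Ccnc, Cdkn2c, Mdm2 and Zmat3 on high fat (log2 differences of 0.31, 0.29, 0.32, -0.96, 0.38 and 0.32) and Cenpm, Orc4, Cdk9, E2f4, Mdm2 and Btg2 on chow (-1.31, 0.33, 0.28, 0.32, 0.40 and -0.58). The list counts stand beside 31.5% of all genes higher and 18.3% lower in males on high fat, and 44.1% higher and 19.1% lower on chow. Of 39 other replication genes, 17 were higher and 5 lower in males on high fat, and 24 higher and 6 lower on chow. For 35 other mitosis genes the counts were 8 higher and 2 lower on high fat, and 4 higher and 3 lower on chow. For 21 other cyclins and Cdks they were 7 higher and 5 lower on high fat, and 14 higher and 3 lower on chow. For 18 inhibitors, pocket proteins and E2F factors they were 8 higher and 3 lower on high fat, and 11 higher and 3 lower on chow, and for 15 p53 targets 5 higher and 1 lower on high fat, and 6 higher and 5 lower on chow.

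Markers of other cell types moved with diet and sex, and their counts stand beside the shares of all genes called. On high fat, 11.4% of all genes were higher and 39.8% lower in males, and 10.0% higher and 23.3% lower in females. For males against females, 31.5% were higher and 18.3% lower on high fat, and 44.1% higher and 19.1% lower on chow. Of 5 markers of lipid-associated macrophages, 4 were higher on high fat in males and 5 in females, and their summed signal was 7.54 to 120.4 (median 17.5) in high fat males and 5.27 to 52.4 (median 9.46) in chow males. In females the sum was 4.74 to 54.0 (median 12.5) on high fat and 5.18 to 11.7 (median 8.12) on chow. Trem2, which marks these cells, was at 0 in 0 high fat males, 8 chow males, 1 high fat female and 3 chow females. Of 7 Kupffer cell markers, 3 were higher on high fat in males and 2 lower in females, with sums of 31.2 to 181.7 in high fat males, 27.4 to 102.6 in chow males, 31.5 to 186.0 in high fat females and 43.9 to 308.9 in chow females. None of 9 markers of T, NK and B cells was called for diet, and all 9 were lower in males on both diets, with sums of 0.222 to 1.91 in high fat males, 0.418 to 1.91 in chow males, 0.739 to 4.29 in high fat females and 0.760 to 2.79 in chow females. Of 7 hepatocyte markers, 5 were lower on high fat in males and 3 in females, and of 6 stellate cell markers 3 were higher in males and 2 in females. Of 6 tested erythroid markers, 4 were higher and 1 lower on high fat in males. Between the sexes, 6 of 7 Kupffer cell markers were lower in males on high fat and 7 of 7 on chow, and 5 of 6 sinusoidal endothelial markers were lower in males on each diet. Of the stellate cell markers, 2 were higher in males on high fat and 4 lower on chow, and of the erythroid markers 1 was higher on high fat, and on chow 1 was higher and 4 lower. These lie beside the lower Ccnd1 and Ccnd2 of males on both diets and the lower Mki67 on chow. The part of these cells in the cell cycle values was not tested.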

How the data were processed

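Total liver RNA of 192 mice was made into TruSeq mRNA-seq libraries, with 2 technical repeats per mouse, per the labels. GRCm38, mm10 and CASAVA 1.8.0 stand in the submitters' processing notes. How reads were aligned and counted, and on which strand, is not given in the sources used here. The authors deposited 1 signal per gene and mouse, normalized to the upper quartile per the table's own title, for 21454 genes (432 IDs without a symbol in GENCODE M21).

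Depth was read from the step between low values: 69.5% to 82.8% of values up to 100 reads were whole to within 0.1 read, too few to rebuild read numbers, and a count test was therefore not run. Values were tested as log2(signal + 0.0629), a pseudocount worth about 3.99 reads of the median mouse. A fold on this scale understates the change of low genes. Genes above 0 in at least 46 mice with a mean of at least the pseudocount were kept (14602). limma 3.58.1 (R 4.3.3) fitted 4 group means with the generation label as covariate and a mean-variance trend. P-values were Benjamini-Hochberg adjusted over all 14602 genes, and under 0.05 a gene was called. The script was tested on simulated data.

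The 40 genes, the lists and the tests were chosen with earlier results of these data known. Full values were given for every gene called in any comparison and 8 named members, and of other lists for the 2 called genes with the smallest p per comparison. Alternatives were other pseudocounts, filters, scalings and weights, each generation label alone, and fits without the mice named in the text, which were added after seeing the data.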

Additional observations from a re-analysis of the deposited data

How the results depend on the processing

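Depth limits the precision in a single mouse, since 6 of the 40 genes had a median under 5 reads and 34 under 100 reads. Counts of called genes for the diet comparison in males, the diet comparison in females, and the sex comparisons on high fat and on chow were 30, 21, 11 and 13. A filter at 10 times the pseudocount left 13 genes to test and gave 9, 7, 4 and 7. Median-of-ratios scaling gave 8 on chow for sex. G11L1 mice alone gave 1 for diet in females, 8 for sex on chow and 10 of 32 correlations against 20, and G11L2 mice alone gave 19 for diet in males, 3 for sex on high fat and 5 for sex on chow, where each label holds fewer mice. Without the mice with pancreas transcripts the count for sex on high fat was 7 and that for generation 1, and without the 3 mice highest in most genes the count for generation was 1. The cause of these moves was not tested beyond the fewer genes or mice that a setting leaves. The other counts stayed within 1.5 times of the main ones, and the reversed results were those of Pcna for sex on chow, which went to -0.10 under median-of-ratios scaling and -0.12 under quantile normalization, against 0.02. Each gene was also counted once per comparison. Of 75 called values, 49 lost their call under at least 1 setting, and 20 did so under settings other than 1 generation label alone. Of the 153 uncalled values, 17 gained a call under at least 1 setting, and 14 under settings other than 1 generation label alone.

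The labels share mouse numbers between groups, but no label says that a number pairs mice. Over 92 pairs of mice with the same number, the median correlation of their deviations was 0.008, against -0.005 for other pairs, and 12 pairs exceeded 0.1. With the mouse number as a replicate block, the counts were again 30, 21, 11 and 13, and 0 for both the sex difference of the diet effect and generation.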
